A study of Caenorhabditis elegans with 6 samples.

Results

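Oxidative phosphorylation is the last stage of aerobic ATP production. Electrons from NADH and succinate enter the mitochondrial inner membrane at complexes I and II, pass through complex III, cytochrome c and complex IV to oxygen, and the proton gradient built on the way drives ATP synthase. Most subunits are encoded in the nucleus, and mutations of several of these genes (isp-1, nuo-6, gas-1, mev-1) are well known in Caenorhabditis elegans for their effects on respiration, oxygen sensitivity and lifespan. The genes described here were a list of 39 such nuclear genes, split by respiratory complex. Of these, 34 were found among the 14700 genes of the deposited table: 29 under their symbol and 5 (cox-4, cox-6B, cox-6C, cox-7C and atp-1) under the locus tag that RefSeq pairs with it, namely W09C5.8, Y71H2AM.5, F29C4.2, F26E4.6 and H28O16.1. The other 5 (mev-1, cox-5A, cox-5B, cox-6A and atp-4) matched neither way and were left out of the counts. For cox-5A, cox-5B and cox-6A, entries under older names are given apart, with complex IV.

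The libraries came from descendants of the QR neuroblast, a migrating precursor of sensory neurons and interneurons, taken as pools of 2000 cells from L1 larvae fed for 7 hours. All 6 libraries carried the allele gk670 of mab-5, a Hox gene of Q cell migration, and the transgenes huIs166 and ayIs9. The 3 ΔN-BAR-1 libraries carried huIs179 in addition, and the series names that group for an N-terminally truncated BAR-1, a β-catenin of canonical Wnt signalling, in the Q lineage. The labels do not name the promoters of the transgenes or how the cells were isolated, nor whether the libraries of a group stem from different cultures. The p-values therefore cover only how far these libraries differ from each other, and part of that can be technical.

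The 6 libraries held 68431 to 254362 estimated transcripts in all, and 3 counts corresponded to 12.34 to 49.4 CPM (CPM being counts scaled to a common library size). All 9 listed Q lineage markers were tested, and unc-86 had the highest level, with a mean of 1406 CPM. Of these, 2 were called, beside 1.65% of all tested genes, and both were higher in ΔN-BAR-1. They were mec-3, which had the smallest p, at 2.71 ± 0.41 on the log2 scale (edgeR adjusted p = 0.000832), and mig-1 at 1.52 ± 0.38 (edgeR adjusted p = 0.0415). Of the 9 markers 4 stood below 0. At an unadjusted p below 0.05 but not called were hlh-14 at 1.78 ± 0.53 and lin-32 at -1.24 ± 0.34 (edgeR adjusted p = 0.116 and 0.0685). For lin-32 every ΔN-BAR-1 library lay below every control library. DESeq2 called 2 of the 9 markers and limma-voom called 1. Over the alternatives run, the adjusted p of mec-3 did not exceed 0.0205, and that of mig-1 lay between 0.0101 and 0.300. It lay between 0.00338 and 0.481 for hlh-14 and between 0.0480 and 0.315 for lin-32. The pools thus differed in markers of the lineage itself, mec-3 under every alternative that tested it and mig-1 under only some. Transcripts of mab-5 were still counted, at 176 to 436 CPM in the 6 libraries, and as the deleted stretch is not given, this does not check the allele. Body wall muscle markers were also present (12 of 20 tested), whereas the muscle determinant hlh-1, the cuticle collagens dpy-7, rol-6 and dpy-13, the intestinal genes elt-2 and ges-1 and the pharyngeal determinant pha-4 were at 0 counts in every library. Other genes of the same lists were present, with a mean over all libraries of 504 CPM for the collagen col-10, 221 CPM for the pharynx gene tbx-2 and 26.4 CPM for the intestinal gene act-5. Because the libraries are bulk pools, fewer cells of a type and less RNA per cell cannot be told apart. In ΔN-BAR-1 replicate 1 the cytosolic ribosomal protein genes summed to 75102 CPM, against 136166 to 154432 CPM in the other libraries (0 of 75 tested called, 67 of 75 below 0, median log2 fold change -0.27, and -0.02 without that library). Among these, rpl-3 had the smallest p at -0.80 ± 0.32 (edgeR adjusted p = 0.269) and rps-18 the highest level at -0.32 ± 0.33 (edgeR adjusted p = 0.814).

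No oxidative phosphorylation gene passed the test for a difference between ΔN-BAR-1 and control cells. Of the 34 genes found, 30 passed the filter on low counts and 0 were called (edgeR quasi-likelihood test, Benjamini-Hochberg adjusted p below 0.05 over 3447 genes), beside 1.65% of all tested genes called in either direction and 0.087% called as lower. DESeq2 and limma-voom also called 0 of the 30, beside 1.74% and 0.638% of all genes. At an unadjusted p below 0.05 there was 1 gene of the 30, ucr-2.2, beside 11.6% of all genes. The fitted log2 fold change (ΔN-BAR-1 against control) was below 0 for 25 of 30, beside 50% of all tested genes, with a median of -0.22 against 0.00 over all genes and a range from -0.91 for ucr-2.2 to 0.29 for cox-7C. In 4 genes (sdha-1, ucr-2.2, atp-2 and atp-3) the ΔN-BAR-1 libraries all lay below the control libraries, a pattern that 7.08% of all tested genes also showed.

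The low side rested largely on a single library. Of the 30 genes, 22 had their lowest value of all 6 libraries in ΔN-BAR-1 replicate 1, beside 22.5% of all tested genes. Without that library, 19 of 30 stood below 0 and the median was -0.06, and 0 were called. The list summed to 14573, 15132 and 14674 CPM in control replicates 1 to 3 and to 9724, 14828 and 15306 CPM in ΔN-BAR-1 replicates 1 to 3. Replicate 1 lay at 65.7% of the control mean, and replicates 2 and 3 lay within or above the control range. Without cyc-2.1, which had the highest level, the values were 11199, 10986 and 11380 CPM in control and 7207, 10848 and 10973 CPM in ΔN-BAR-1 libraries, so that all ΔN-BAR-1 libraries lay below the controls, replicate 3 next to the lowest. The low ribosomal protein sum occurred in the same library. Muscle markers summed to 7691 CPM there, against 9090 to 16502 CPM in control libraries and 14960 and 21079 CPM in the other ΔN-BAR-1 libraries. The highest of these sums rests on the myosin gene unc-54 (15580 CPM in ΔN-BAR-1 replicate 3), where every possible molecular identifier had been used. A gene at that ceiling was given a fixed highest value, 3182 in this library against 1597 in 3 of the other libraries. Hypodermis and seam markers (5 of 14 tested) summed to 402 CPM in ΔN-BAR-1 replicate 1, against 1004 to 1350.5 CPM in control libraries and 1439 and 798 CPM in ΔN-BAR-1 replicates 2 and 3. In ΔN-BAR-1 replicate 1 the collagen col-10 stood at 70.7 CPM, against 432 to 852 CPM in control libraries. Of the other tested genes of this list, grd-10 and mup-4 also lay below the control range in that library, and lin-26 and elt-6 lay within it. Pharyngeal markers (1 of 8 tested) summed to 370.2 to 454.5 CPM in control and 208 to 397 CPM in ΔN-BAR-1 libraries. Of these sums tbx-2 made up 369, 337 and 198 CPM in control replicates 1 to 3. In ΔN-BAR-1 replicates 1 to 3 tbx-2 made up 234, 122 and 68.5 CPM. The pharynx gene tni-4, which was not tested, stood at 0, 25.4 and 176 CPM there, against at most 49.4 CPM in control libraries. Intestinal markers (0 of 12 tested) summed to 20.6 to 107 CPM in control and 30.5 to 59.8 CPM in ΔN-BAR-1 libraries. Of the muscle, hypodermis, pharynx and germline genes tested 0 were called by edgeR, DESeq2 or limma-voom, beside 1.65%, 1.74% and 0.638% of all tested genes. In at least 1 of the other edgeR alternatives unc-54, col-10 and tbx-2 were called (lowest edgeR adjusted p = 0.0145, 0.00166 and 0.0158). At an unadjusted p below 0.05 were the muscle gene unc-97 at 0.87 ± 0.36 and tbx-2 at -1.14 ± 0.42 on the log2 scale (edgeR adjusted p = 0.311 and 0.221). Over all tested genes 11.6% had such a p. On the same scale unc-54 stood at 0.76 ± 0.53 and col-10 at -0.93 ± 0.94. Of the 12 tested muscle genes 7 stood below 0 and 5 above, with a median of -0.05. The lowest was mlc-2 at -1.02 ± 0.50 (edgeR adjusted p = 0.456). The part of these cell types and of ribosomal protein levels in the oxidative phosphorylation values was not tested.

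**Figure D1:**
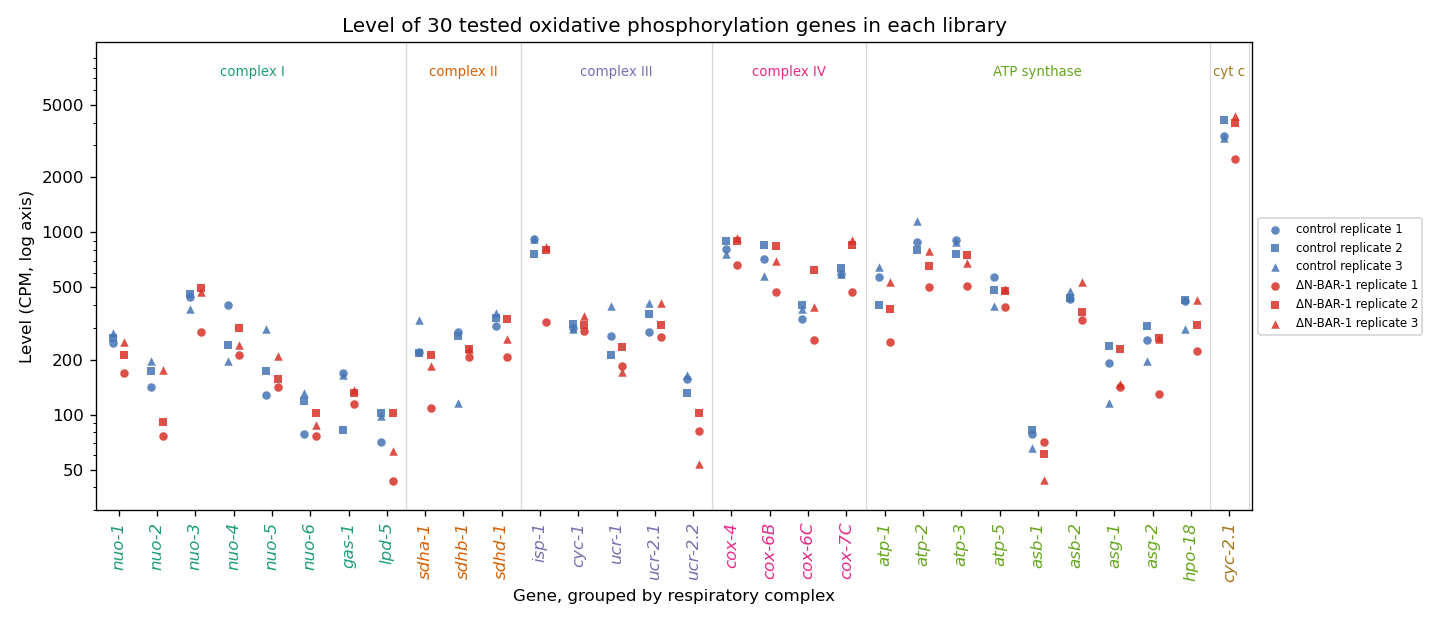
Level of each tested gene in CPM (log axis), with 1 point per library and genes grouped by complex; blue marks control, red ΔN-BAR-1, and the symbol gives the replicate. Replicate 1 of ΔN-BAR-1 (red circles) was the lowest of the 6 libraries for 22 of the 30 genes.

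A gene that is not called may still differ, and the 95% intervals give the range that these libraries allow. All 30 of the 95% intervals excluded a 2-fold higher level in ΔN-BAR-1, the highest upper bound being 0.96 on the log2 scale for cox-7C. A 2-fold lower level was excluded for 16 of 30, so that 16 intervals lay wholly within 2-fold either way, beside 20.2% of all tested genes. The 4 genes that were found but not tested had too few counts: sdha-2 had 0 counts in every library, ucr-2.3 had 2 in all, cox-10 had 8 and cox-11 had 25. A count of 0 for sdha-2 allows a level of up to 12.34 CPM in the deepest library, control replicate 2, and 49.4 CPM in the shallowest, control replicate 3, by counting error only. The protein encoded by cox-10 makes the heme A of complex IV, and that of cox-11 delivers copper to it. Control replicates 1 to 3 held 2, 10 and 5 counts of cox-11 and ΔN-BAR-1 replicates 1 to 3 held 4, 1 and 3.

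**Figure D2:**
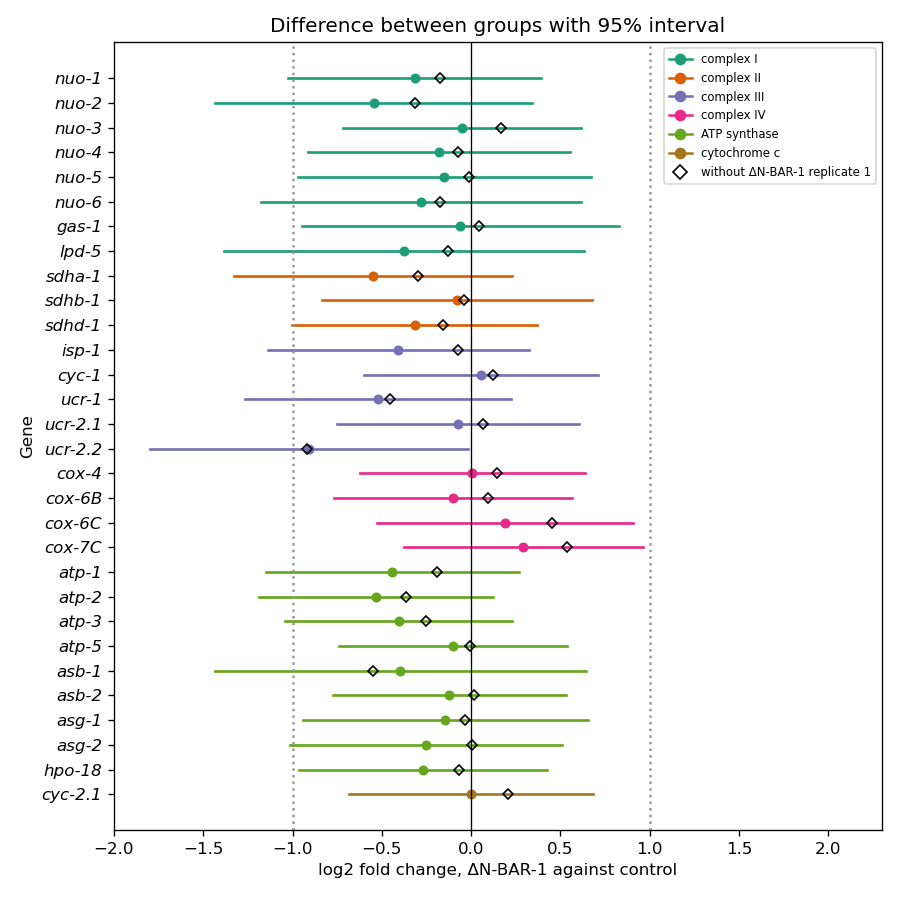
The log2 fold change of each tested gene (filled circle) with its 95% interval from the edgeR fit, coloured by complex; open diamonds give the value without ΔN-BAR-1 replicate 1, and dotted lines mark 2-fold. None of the upper bounds reached 2-fold, and 16 of 30 intervals lay between the dotted lines.

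Complex I accepts electrons from NADH. All 8 listed genes were tested, 0 were called, and all 8 had log2 fold changes below 0, from -0.55 to -0.05 with a median of -0.23 (6 of 8 below 0 and a median of -0.10 without ΔN-BAR-1 replicate 1). The smallest p belonged to nuo-2, which encodes a subunit of the peripheral arm (the homologue of human NDUFS3). Its level was 142, 173 and 198 CPM in control replicates 1 to 3 and 76.1, 91.5 and 176 CPM in ΔN-BAR-1 replicates 1 to 3. ΔN-BAR-1 replicate 3 lay among the control libraries, so the groups overlapped, and the log2 fold change was -0.55 ± 0.43 (SE; edgeR adjusted p = 0.722). The gene with the highest level was nuo-3, which encodes an accessory subunit, at 440, 461 and 379 CPM in control and 283, 493 and 470 CPM in ΔN-BAR-1 libraries. Apart from ΔN-BAR-1 replicate 1 its libraries lay between 379 and 493 CPM in both groups, with a log2 fold change of -0.05 ± 0.32 (edgeR adjusted p = 0.976). The catalytic subunit genes nuo-1 (the flavoprotein that binds NADH), nuo-5 (the largest iron-sulfur subunit) and gas-1 (a core subunit near the quinone site) stood at -0.32 ± 0.34, -0.15 ± 0.39 and -0.06 ± 0.43. The accessory subunit genes nuo-4, nuo-6 and lpd-5 stood at -0.18 ± 0.35, -0.28 ± 0.43 and -0.38 ± 0.48. Mean levels in complex I ran from 80.2 CPM for lpd-5 to 421 CPM for nuo-3. Each transcript is counted from its 3′ end, so these levels were compared without division by length.

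Complex II oxidises succinate and links the chain to the citric acid cycle. Of 5 listed genes 4 were found and 3 tested, with 0 called. The flavoprotein gene sdha-1 stood at 220, 218 and 329 CPM in control replicates 1 to 3 and at 109, 213 and 186 CPM in ΔN-BAR-1 replicates 1 to 3. The groups did not overlap, but ΔN-BAR-1 replicate 2 (213 CPM) lay next to the lowest control library (218 CPM), and the change of -0.55 ± 0.37 on the log2 scale did not pass the test (edgeR adjusted p = 0.669). The membrane anchor gene sdhd-1 had the highest level, 305, 337 and 362 CPM in control and 207, 335 and 260 CPM in ΔN-BAR-1 libraries, and stood at -0.32 ± 0.33 (edgeR adjusted p = 0.819). The iron-sulfur subunit gene sdhb-1 stood at -0.08 ± 0.36. No count came from the second flavoprotein gene, sdha-2, so all of the flavoprotein transcripts detected were those of sdha-1.

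Complex III passes electrons from ubiquinol to cytochrome c. Of its 6 listed genes 5 were tested, 0 were called, and 4 of 5 had log2 fold changes below 0. The Rieske iron-sulfur protein gene isp-1 had the highest level. It stood at 923, 757 and 922 CPM in control replicates 1 to 3 and at 321, 803 and 827 CPM in ΔN-BAR-1 replicates 1 to 3. The first of these ΔN-BAR-1 libraries stood far below the others, which lay within the control range. The log2 fold change was -0.41 ± 0.35 (edgeR adjusted p = 0.760) and -0.07 without that library. The cytochrome c1 gene cyc-1 stood at 0.06 ± 0.32 and had close values in all 6 libraries, between 288 and 348 CPM. The core protein gene ucr-1 stood at -0.52 ± 0.36, and at -0.46 without ΔN-BAR-1 replicate 1.

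The core protein gene ucr-2.2 had the lowest log2 fold change on the list. Its level was 156, 132 and 165 CPM in control replicates 1 to 3 and 81.5, 102 and 53.9 CPM in ΔN-BAR-1 replicates 1 to 3, from 22, 32 and 10 counts against 15, 20 and 11. Every ΔN-BAR-1 library lay below every control library, and here replicate 3, not replicate 1, was the lowest. The log2 fold change was -0.91 ± 0.43 with a 95% interval from -1.80 to -0.02 (unadjusted p = 0.0464, edgeR adjusted p = 0.414), and it ran from -1.17 to -0.72 when single libraries were left out. Its adjusted p lay between 0.307 and 0.807 over the alternatives run. Its paralogue ucr-2.1 stood at -0.08 ± 0.33, with 284, 358 and 412 CPM in control and 266, 310 and 411 CPM in ΔN-BAR-1 libraries, which overlapped throughout.

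Complex IV reduces oxygen to water. Of 7 listed subunit genes 4 were found and tested, with 0 called, 1 of 4 below 0 and a median log2 fold change of 0.10 (0 of 4 below 0 and a median of 0.30 without ΔN-BAR-1 replicate 1, but -0.16 without ΔN-BAR-1 replicate 2 and -0.0038 without replicate 3). All 4 had their lowest value in ΔN-BAR-1 replicate 1. The gene with the highest level, cox-4, stood at 810, 901 and 758 CPM in control replicates 1 to 3 and at 663, 900 and 925 CPM in ΔN-BAR-1 replicates 1 to 3, a log2 fold change of 0.01 ± 0.30 (edgeR adjusted p = 0.998). The gene with the smallest p, cox-7C, which encodes a small accessory subunit, stood at 589, 638 and 593 CPM in control and at 473, 854 and 906 CPM in ΔN-BAR-1 libraries. Its control libraries lay close together and its ΔN-BAR-1 libraries lay on both sides of them, with a log2 fold change of 0.29 ± 0.32 (edgeR adjusted p = 0.840). The other small subunit genes, cox-6B and cox-6C, stood at -0.10 ± 0.32 and 0.19 ± 0.35. The table also holds cco-1, cco-2 and tag-174, which are older names of cox-5B, cox-5A and cox-6A by general knowledge and which the name tables used here do not pair with them. They were kept out of the counts and stood at 0.05 ± 0.35, 0.21 ± 0.30 and -0.08 ± 0.31.

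ATP synthase makes ATP from the proton gradient through a catalytic F1 head, a membrane rotor and a peripheral stalk. Of 10 listed genes 9 were found and tested, with 0 called, and all 9 stood below 0, from -0.53 to -0.10 with a median of -0.27 (7 of 9 below 0 and a median of -0.07 without ΔN-BAR-1 replicate 1). The catalytic β subunit gene atp-2 had both the highest level and the smallest p of this complex. It stood at 888, 798 and 1153 CPM in control replicates 1 to 3 and at 500, 651 and 793 CPM in ΔN-BAR-1 replicates 1 to 3. The groups did not overlap, though the highest ΔN-BAR-1 library (793 CPM) lay next to the lowest control library (798 CPM), and the log2 fold change was -0.53 ± 0.31 (edgeR adjusted p = 0.589), or -0.36 with ΔN-BAR-1 replicate 1 left out. The stalk subunit gene atp-3, the homologue of the oligomycin sensitivity protein, stood at 909, 765 and 889 CPM in control and at 505, 747 and 676 CPM in ΔN-BAR-1 libraries. These groups were also apart, at -0.41 ± 0.31 (edgeR adjusted p = 0.709), or -0.25 with that library left out. The α subunit gene atp-1 stood at -0.44 ± 0.34, with overlapping groups (568, 399 and 642 CPM against 250, 381 and 534 CPM). The subunit d gene atp-5 and the ε subunit gene hpo-18 stood at -0.10 ± 0.31 and -0.27 ± 0.33.

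The electron carrier cytochrome c had the most abundant transcript of the list. Its gene cyc-2.1 stood at 3373, 4146 and 3294 CPM in control replicates 1 to 3 and at 2517, 3980 and 4333 CPM in ΔN-BAR-1 replicates 1 to 3, rank 19 of 14700 genes by mean level. The groups overlapped, with a log2 fold change of 0.00 ± 0.33 (edgeR adjusted p = 0.999) and 0.21 without ΔN-BAR-1 replicate 1. These values lean on the authors' collision correction, since nearly all possible molecular identifiers had been used: 251 in control replicate 2, and 244 and 248 in ΔN-BAR-1 replicates 2 and 3. Counted as distinct identifiers the log2 fold change was -0.36 (edgeR adjusted p = 0.771). The next gene in level, cox-4, had used at most 147 identifiers.

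The summed levels of the complexes were set beside each other without a test. In ΔN-BAR-1 replicates 1 to 3, ATP synthase summed to 61.2%, 83.9% and 93.8% of its control mean, all below the control libraries (94.6% to 104%). The sum of 7 further genes listed under ATP synthase, among them the inhibitor genes mai-1 and mai-2, did not show this. It was 4084, 3813 and 3821 CPM in control and 2104, 4570 and 3990 CPM in ΔN-BAR-1 libraries. Y82E9BR.3 had the largest part in it. Of the 6 tested genes 3 stood below 0, the lowest being Y69A2AR.18 at -0.52 ± 0.32, and 3 above. Complex IV summed to 74.2%, 128% and 116%, on both sides of the control libraries (91.8% to 111%). Within each library, the sum of complex IV divided by that of ATP synthase was 0.567, 0.709 and 0.545 in control and 0.733, 0.923 and 0.748 in ΔN-BAR-1 replicates 1 to 3. This ratio does not depend on library scaling, it was higher in every ΔN-BAR-1 library than in every control library, and replicate 1 did not stand apart in it. With cco-1, cco-2 and tag-174 added to complex IV it was 0.988, 1.19 and 0.891 against 1.29, 1.51 and 1.28. The ratio of complex I to ATP synthase was 0.389 to 0.412 in control and 0.419 to 0.456 in ΔN-BAR-1 libraries, also apart. The ratios of complex II, complex III and cytochrome c to ATP synthase overlapped between the groups. These ratios share a denominator, were formed after the values were seen, and were not tested.

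**Figure D3:**
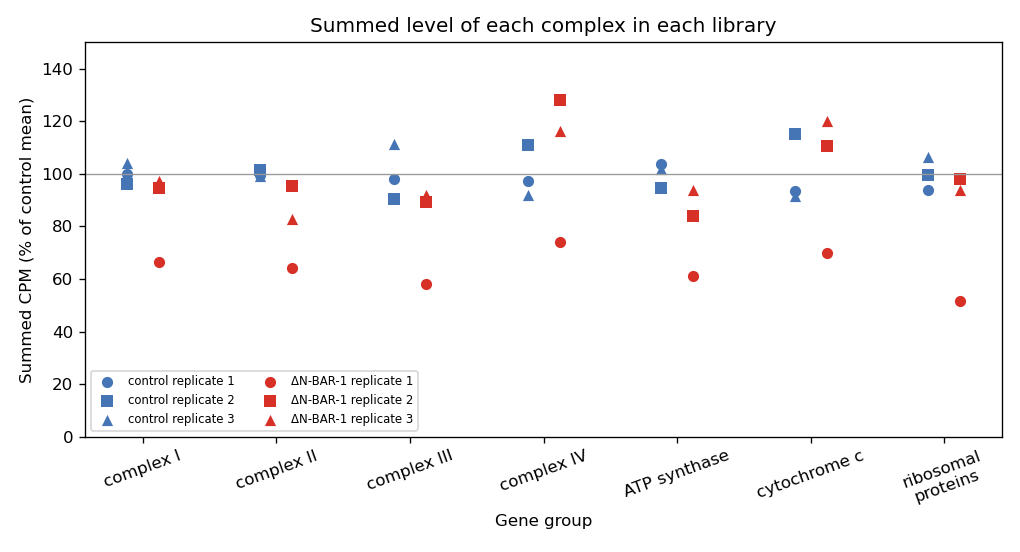
Summed level of the genes of each complex, and of 76 cytosolic ribosomal protein genes, as a percentage of the control mean, with 1 point per library. In ΔN-BAR-1 replicate 1 (red circles) all 6 groups of the respiratory chain lay between 58.01% and 74.2% of the control mean, and ribosomal protein genes at 51.8%.

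Paralogous subunit genes were compared by the share of each copy in the joint counts of a pool. Which cells of the pool held each copy cannot be told from bulk counts. Subunit b of the ATP synthase stalk is encoded by asb-1, known for its germline expression, and asb-2, known from somatic tissue. The asb-2 share of their joint counts was 84.7%, 84.1% and 87.9% in control replicates 1 to 3 and 82.4%, 85.7% and 92.4% in ΔN-BAR-1 replicates 1 to 3, so the groups overlapped (exact permutation test, two-sided, p = 0.8). The lowest bound of their exact 95% binomial intervals was 71.8%, and asb-2 was the major copy in every library. The germline genes glh-2 and nos-2 were at 0 counts in every library. Of the same list, glh-1 had 15 counts in all, mex-5 had 6, gld-1 had 2, and pgl-1 and pgl-3 had 1 each. The list of germline markers (1 of 8 tested, spd-5 at -0.53 ± 0.43, 0 called) summed to 98.8 to 292 CPM in control and 117.5 to 173.9 CPM in ΔN-BAR-1 libraries. Most of each sum came from spd-5, with 255 of 292 CPM in control replicate 2. On the log2 scale asb-1 stood at -0.40 ± 0.50 and asb-2 at -0.12 ± 0.31. Subunit g genes were closer to parity, with an asg-2 share of 57.1%, 56.4% and 63.2% in control and 48.0%, 53.6% and 63.9% in ΔN-BAR-1 libraries (exact p = 0.5), and log2 fold changes of -0.14 ± 0.38 for asg-1 and -0.25 ± 0.37 for asg-2.

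Among the core protein genes of complex III, ucr-2.1 made up 64.5%, 73.1% and 71.4% of the joint counts with ucr-2.2 in control replicates 1 to 3. In ΔN-BAR-1 replicates 1 to 3 its share was 76.6%, 75.3% and 88.4%. Every ΔN-BAR-1 library lay above every control library, with means of 69.7% ± 4.55 and 80.1% ± 7.24 (SD, n = 3 each; exact permutation test, two-sided, p = 0.1, the smallest p that 3 against 3 libraries allow, and 0.4 adjusted over the 4 pairs). Their exact 95% binomial intervals overlapped between groups in most libraries: control replicate 2 spanned 64.2% to 80.8%, and ΔN-BAR-1 replicates 1 and 2 spanned 64.3% to 86.2% and 64.5% to 84.2%. The third copy, ucr-2.3, had 2 counts, both in control replicate 2. For the quinone-site subunit of complex I, gas-1 held 90.9% to 96.0% of the joint counts with its paralogue nduf-2.2 in control and 95.5% to 100% in ΔN-BAR-1 libraries (exact p = 0.2), nduf-2.2 having 6 counts in all. How reads that match both copies were assigned is not given in the sources used here.

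**Figure D4:**
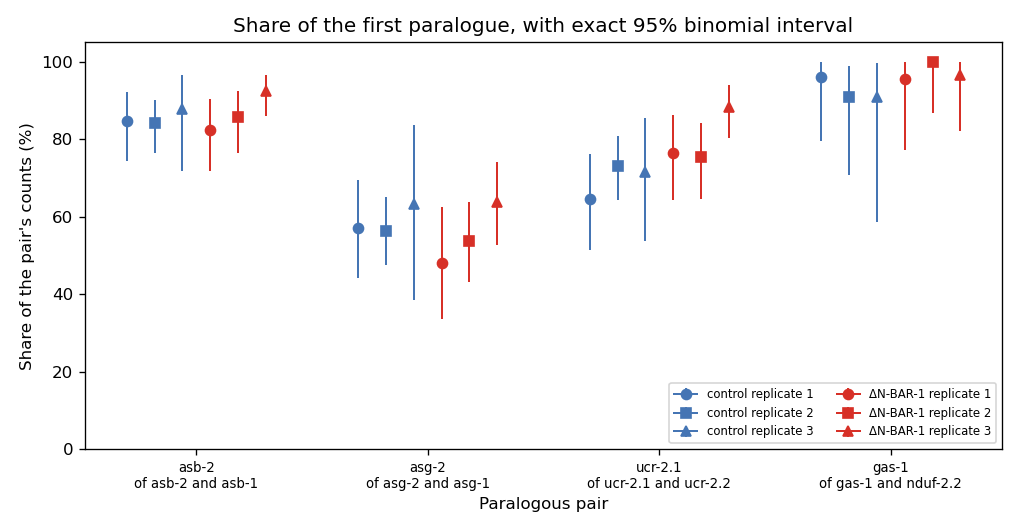
Share of the first-named gene in the joint counts of each paralogous pair, in percent, with exact 95% binomial intervals (counting error only) and 1 point per library. For ucr-2.1 the ΔN-BAR-1 libraries (75.3% to 88.4%) lay above the control libraries (64.5% to 73.1%), while the groups overlapped for the other 3 pairs.

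Other nuclear genes of the same machinery also held no called gene. Of 53 further genes for subunits, assembly factors and inhibitors, 50 were found and 38 tested, with 0 called by edgeR, DESeq2 or limma-voom. These tools called 1.65%, 1.74% and 0.638% of all tested genes. At an unadjusted p below 0.05 were 2 of the 38, beside 11.6% of all tested genes. Of the 38 genes 16 stood below 0, beside 50%, and the median log2 fold change was 0.03. Leaving out ΔN-BAR-1 replicate 1 gave a median of 0.23, against -0.06 for the 30 genes above, and the difference between the lists was not tested. The smallest p was that of Y54F10AM.5 (ndua-8 in RefSeq, an accessory subunit of complex I), at -1.05 ± 0.44 (edgeR adjusted p = 0.307), from 210 ± 68.8 to 99.9 ± 46.6 CPM (SD, n = 3 each). The other gene at an unadjusted p below 0.05 was the complex I subunit gene nduf-5, named after its values were seen, at 0.81 ± 0.37 (edgeR adjusted p = 0.384), from 129 ± 31.3 to 232 ± 18.9 CPM. Y82E9BR.3 had the highest level, 1486 ± 95.8 CPM in control and 1347 ± 664 CPM in ΔN-BAR-1 libraries. Of 12 genes encoded in mitochondrial DNA, 0 were found under their symbols, and they are not analysed here.

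Pathways that feed or follow the respiratory chain held 0 called genes by edgeR, DESeq2 or limma-voom, beside 1.65%, 1.74% and 0.638% of all tested genes. Of all tested genes 11.6% had an unadjusted p below 0.05 and 50% stood below 0. Of 13 tested genes of the citric acid cycle and pyruvate oxidation 8 stood below 0, with a median of -0.24 and 2 at an unadjusted p below 0.05. The aconitase gene aco-2 had the smallest p at 1.23 ± 0.50 (edgeR adjusted p = 0.292). The other gene at an unadjusted p below 0.05, mdh-2, went the other way, at -0.83 ± 0.37 (edgeR adjusted p = 0.380). The highest level was that of dlst-1, for a subunit of the oxoglutarate dehydrogenase complex, at -0.40 ± 0.32. Of 12 tested glycolysis genes 5 stood below 0, with a median of 0.37 and 1 at an unadjusted p below 0.05, the aldolase gene aldo-1 at 0.88 ± 0.34 (edgeR adjusted p = 0.254). The enolase gene enol-1 had the highest level and stood at -0.04 ± 0.36. The ADP/ATP carrier gene ant-1.1, at 3450 ± 356 CPM in control and 3545 ± 814 CPM in ΔN-BAR-1 libraries, was near cyc-2.1 in level and stood at 0.04 ± 0.32, and its paralogues ant-1.3 and ant-1.4 had 0 counts. The other carrier gene tested, F01G4.6, had the smaller p and stood at -0.80 ± 0.88 (edgeR adjusted p = 0.840).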

How the data were processed

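Messenger RNA of pooled QR descendants was barcoded and amplified by CEL-seq and made into CEL-seq2 libraries, per the labels' protocols; this method counts each transcript once, near its 3′ end. The deposited values are estimated counts of transcripts per gene. Their low values lie where a correction for chance collisions among molecular identifiers places them. In ΔN-BAR-1 replicate 3 the scale of this correction differed slightly from the other libraries, and genes with all identifiers used had a higher value. One common correction was an alternative. The sources used here name no aligner, annotation or genome build, so no coordinates or sequences are given. Before testing, these estimates were rounded to whole numbers.

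The oxidative phosphorylation genes and the other gene lists were chosen with earlier results of these data known. Control and ΔN-BAR-1 (3 libraries each, 68431 to 254362 counts) were compared over the whole table with edgeR 4.0.16 (R 4.3.3): filterByExpr, TMM scaling, robust quasi-likelihood F test, Benjamini-Hochberg adjustment at 0.05. CPM use the TMM-scaled library sizes. The procedure was tested on simulated data. DESeq2 1.42.0, limma-voom (limma 3.58.1), other filters and scalings, thinning, a replicate block and each library left out were alternatives. Same-numbered libraries did not deviate together (correlations from -0.15 to -0.03). Shares of paralogues were compared by two-sided exact permutation tests with exact (Clopper-Pearson) 95% binomial intervals, which cover counting error only. All listed genes are accounted for. Described in full are, per complex, the gene with the highest level and that with the smallest p, genes whose groups do not overlap, and paralogues. Of other lists these are the gene with the smallest p and that with the highest level. Outside this rule, mig-1, hlh-14, lin-32, nduf-5 and mdh-2 were given for their unadjusted p below 0.05. To describe their lists, mlc-2, tni-4, grd-10, mup-4, lin-26 and elt-6 were named after the data were seen.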

Additional observations from a re-analysis of the deposited data

How the results depend on the processing

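Under the 17 alternatives that refitted the test, 0 of the 30 oxidative phosphorylation genes were called, and the lowest adjusted p was 0.307. Adding cco-1, cco-2 and tag-174, or leaving out the genes found by locus tag, both chosen after the data were seen, moved the median from -0.22 to -0.15 and -0.27. Over the other filters, scalings and tools that median lay between -0.31 and -0.13. The sign of 16 of the 30 genes, among them cox-4, cox-6B, cox-6C and cyc-2.1, changed in at least 1 alternative. Leaving out single libraries gave medians from -0.36 to -0.06 for the list, -0.40 to -0.10 for complex I, -0.55 to -0.15 for complex II, -0.62 to -0.07 for complex III (-0.075 without ΔN-BAR-1 replicate 1), -0.16 to 0.30 for complex IV and -0.44 to -0.07 for ATP synthase, and a log2 ratio of the summed CPM from -0.29 to 0.04. Thinning to the shallowest library turned the complex II median to 0.23; the cause was not tested. The number of genes called over the whole table, 57, was 35 with a minimum count of 30 and 30 after thinning (fewer genes tested), 101 with no filter (more genes tested), 22 with limma-voom and 16 to 121 with single libraries left out, 121 of them without ΔN-BAR-1 replicate 1. With the replicate number as a block it was 19, with 0 of the 30 genes called and a median of -0.22; the libraries share only a number. Where the counts moved otherwise, the cause was not tested. Depth limits the genes under the filter, and 14 of the 30 intervals did not exclude a 2-fold lower level.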
